A study of Homo sapiens with 24 samples.

Results

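The genes described here encode enzymes that make or interconvert asparagine, glutamine, glutamate, aspartate, arginine and proline. They were taken by name as ASNS, ASS1, ASL, GLUL, GLUD1, GOT1, GOT2, GPT2 and ALDH18A1, with every probe set of each. Of these 9 genes, 8 were named in the array annotation, with 14 probe sets among 54675. GPT2, a mitochondrial alanine aminotransferase, had no probe set under its name, so no value is given for it. All 8 named genes passed the filter on dim signal and were tested among 14141 genes, and 12 of their probe sets passed it among 32805.

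The measurements came from 24 Affymetrix arrays of 3 established human breast cancer cell lines, in 8 groups of 3 arrays. HS578T, SUM149PT and SUM159PT cells were each given DMSO or AZD3965, an inhibitor of the lactate transporter MCT1, for 24 hours. SUM149PT cells were also infected with lentivirus carrying a scrambled shRNA or an MCT1 shRNA and kept in puromycin at 2 µg/ml for 5 days. HS578T cells grew in DMEM with serum, whereas both SUM lines grew in F12 with serum, insulin, hydrocortisone, EGF and gentamicin, so line and medium cannot be told apart. The labels give no dose of AZD3965 and name a single MCT1 shRNA vector. Separate cultures are not stated for the arrays of a group, so the p-values rest on a spread between arrays that could be technical. The level of the gene targeted by the shRNA was not checked here.

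Asparagine synthetase (ASNS) moves an amide nitrogen from glutamine to aspartate to make asparagine. Argininosuccinate synthase (ASS1) joins citrulline to aspartate, and argininosuccinate lyase (ASL) splits the product into arginine and fumarate. Glutamine synthetase (GLUL) makes glutamine from glutamate and ammonia, and glutamate dehydrogenase (GLUD1) converts glutamate to 2-oxoglutarate. The aspartate aminotransferases GOT1, in the cytosol, and GOT2, in mitochondria, exchange amino groups between glutamate and aspartate and serve the shuttle that moves reducing equivalents between these compartments. ALDH18A1 starts proline and ornithine synthesis from glutamate. In general, ASNS is a known target of the amino acid response, in which the transcription factor ATF4 binds composite sites with C/EBP proteins, and ASS1 is silenced in some tumours.

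Promoter windows of the members were searched for short motifs, and sequence is shown where a motif matched, whether or not the gene was called. RefSeq windows on GRCh38.p14, from 250 bases before to 50 bases after an annotated start, were found for all 8 members, 11 windows in all. Both strands were searched for TGATGNAA, the core of an ATF4 and C/EBP composite element, and for CACGTG, an E-box. No window of a member held both motifs, so the matches do not overlap. The first line is the 250 bases before an ASNS start, chr7:97872409-97872658, minus strand, and the second is the surrounding part of the GOT1 promoter, chr10:99430795-99430842, minus strand. The third is from the second ASS1 window, chr9:130444880-130444905, plus strand, and the fourth is from ALDH18A1, chr10:95656832-95656857, minus strand. All are written 5′ to 3′ along the gene's strand, and capitals mark the match, which in GOT1 lies on the opposite strand.
ASNS: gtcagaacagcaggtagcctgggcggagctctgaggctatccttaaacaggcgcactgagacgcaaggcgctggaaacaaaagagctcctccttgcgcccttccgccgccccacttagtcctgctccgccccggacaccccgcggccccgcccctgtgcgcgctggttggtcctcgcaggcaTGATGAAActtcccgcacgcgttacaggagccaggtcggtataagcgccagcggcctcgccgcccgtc
GOT1: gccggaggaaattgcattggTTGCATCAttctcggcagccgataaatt
ASS1: gcgtccccgcCACGTGtccccggtca
ALDH18A1: gctggcccgcCACGTGgagcgctggc

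The TGATGNAA match began at base -68 in ASNS and at base -198 in GOT1, counted from the start. The other windows of the members held no match to it. The CACGTG match began at base -71 in ASS1 and at base -136 in ALDH18A1. Among all 35116 windows of this length, 3.62% held TGATGNAA and 7.26% held CACGTG. A match describes letters in the window only, and no factor's binding was measured.

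ASNS, ASS1 and GOT1 rose with the MCT1 shRNA in SUM149PT. They were 3 of 8 members tested, and no member fell. In the limma fit across all genes, 14.9% of genes were called in either direction at an adjusted p under 0.05, 7.22% higher and 7.64% lower. With median centring of the arrays, the median gene difference shifted by -0.11 on the log2 scale and 2.81% of genes were called higher, 23.1% of those called in place of 48.6%. The arrays of both groups did not overlap for 3 of 8 members and for 29.8% of genes. The median log2 difference of the 8 members was 0.17, beside -0.0034 over all genes tested. The members were chosen with earlier results of these data known. Shares and medians of the 8 members, here and below, are therefore not read as a difference from all genes. In bulk RNA such as this, fewer cells of a kind and less RNA per cell cannot be told apart.

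The ASNS signal was 4555, 4643 and 5259 on the scramble arrays and 10959, 11388 and 11981 on the MCT1 shRNA arrays. Every MCT1 shRNA array lay above every scramble array, and no other group reached this level. The mean rose from 4819 ± 383 to 11443 ± 513 (SD, n = 3 each), a log2 difference of 1.25 ± 0.07 (SE) or 2.37-fold (limma adjusted p = 5.93e-11). By log2 difference ASNS ranked 58 from the highest of 14141 genes. The other ASNS probe set, 241082_at, read between 1.09 and 26.6 on the 24 arrays and was too dim to test.

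The ASS1 signal was 3143, 2880 and 3800 on the scramble arrays and 7502, 7752 and 7664 on the MCT1 shRNA arrays. These groups did not overlap either, and the MCT1 shRNA arrays had the highest ASS1 signals of the 24. The mean rose from 3275 ± 474 to 7639 ± 127 (SD, n = 3 each), a log2 difference of 1.23 ± 0.08 (SE) or 2.34-fold (limma adjusted p = 5.16e-10). ASS1 ranked 63 from the highest. ASL, which acts on the product of ASS1, gave 690, 587 and 932 with scramble and 692, 847 and 889 with the MCT1 shRNA. Its arrays overlapped, and the log2 difference was 0.15 ± 0.13 with a 95% interval from -0.12 to 0.43 (limma adjusted p = 0.508). Without scramble array 3 it was 0.33 (limma adjusted p = 0.0782).

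GOT1 gave 1606, 1540 and 1332 with scramble and 1865, 1909 and 1859 with the MCT1 shRNA, again without overlap. The log2 difference was 0.33 ± 0.10 (SE), or 1.26-fold (limma adjusted p = 0.0255). Without scramble array 3 it was 0.25 (limma adjusted p = 0.121), and with arrays centred on their medians 0.22 (limma adjusted p = 0.247). The call was also lost without MCT1 shRNA array 1, 2 or 3 (adjusted p of 0.0617, 0.0754 and 0.0591). The actin control's ratio of 3′ over 5′ signal, a sign of RNA quality, was 53.8 on scramble array 3, 2.14 and 1.45 on scramble arrays 1 and 2, and 1.39 to 1.73 with the MCT1 shRNA. Without scramble array 3 the ASNS difference was 1.31 and that of ASS1 1.34. GOT2, the mitochondrial counterpart, gave 10853, 9840 and 8921 with scramble and 9921, 9641 and 10319 with the MCT1 shRNA, a log2 difference of 0.02 with a 95% interval from -0.13 to 0.17 (limma adjusted p = 0.915), and -0.05 without scramble array 3.

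ALDH18A1 was read by a pair of probe sets that gave different calls. On 222416_at, the brighter one, scramble arrays gave 2202, 2046 and 1764 and MCT1 shRNA arrays 2330, 2113 and 2412, which overlapped. The log2 difference there was 0.19 ± 0.08 (SE; limma adjusted p = 0.119). On 217791_s_at the signals were 875, 889 and 664 against 1167, 1142 and 1164, without overlap. The difference on that probe set was 0.52 ± 0.10 (SE; limma adjusted p = 0.00149 in the fit across probe sets, where 10.5% were called), and 0.39 without scramble array 3 (limma adjusted p = 0.00862). With arrays centred on their medians it was 0.41 (limma adjusted p = 0.0671). On 222416_at the difference was 0.10 without scramble array 3 (limma adjusted p = 0.462) and 0.26 without scramble array 1 (limma adjusted p = 0.0459). The mean of the probe sets gave 0.36 (limma adjusted p = 0.00434).

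GLUL and GLUD1 had log2 differences on their brightest probe sets of -0.14 (95% interval -0.32 to 0.05) and -0.05 (95% interval -0.21 to 0.12), and neither was called. Without scramble array 3 they were -0.23 (limma adjusted p = 0.0843) and -0.11 (limma adjusted p = 0.428). GLUL signals on 215001_s_at were 272, 260 and 215 with scramble and 244, 215 and 215 with the MCT1 shRNA. All 6 arrays were below the 1075 to 1116 of the DMSO arrays of the same line. Scramble against DMSO, compared after these values were seen, gave calls for 4 of 8 members, where 33.0% of genes were called. The same comparison without scramble array 3 also called ASS1 and GOT2. The share of all genes called in that fit was not counted, so the added calls are not read as a result about the members. GLUD1 on 200947_s_at gave 4127, 4226 and 3640 with scramble and 4211, 3457 and 3946 with the MCT1 shRNA, with overlap. Its second probe set, 200946_x_at, gave 2259, 2601 and 1069 against 2565, 2142 and 2441, where the lowest value belonged to scramble array 3. The difference on that probe set was 0.36 ± 0.18 (SE; limma adjusted p = 0.234) with that array, -0.03 without it, and 0.61 without scramble array 2 (limma adjusted p = 0.0203).

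**Figure D1:**
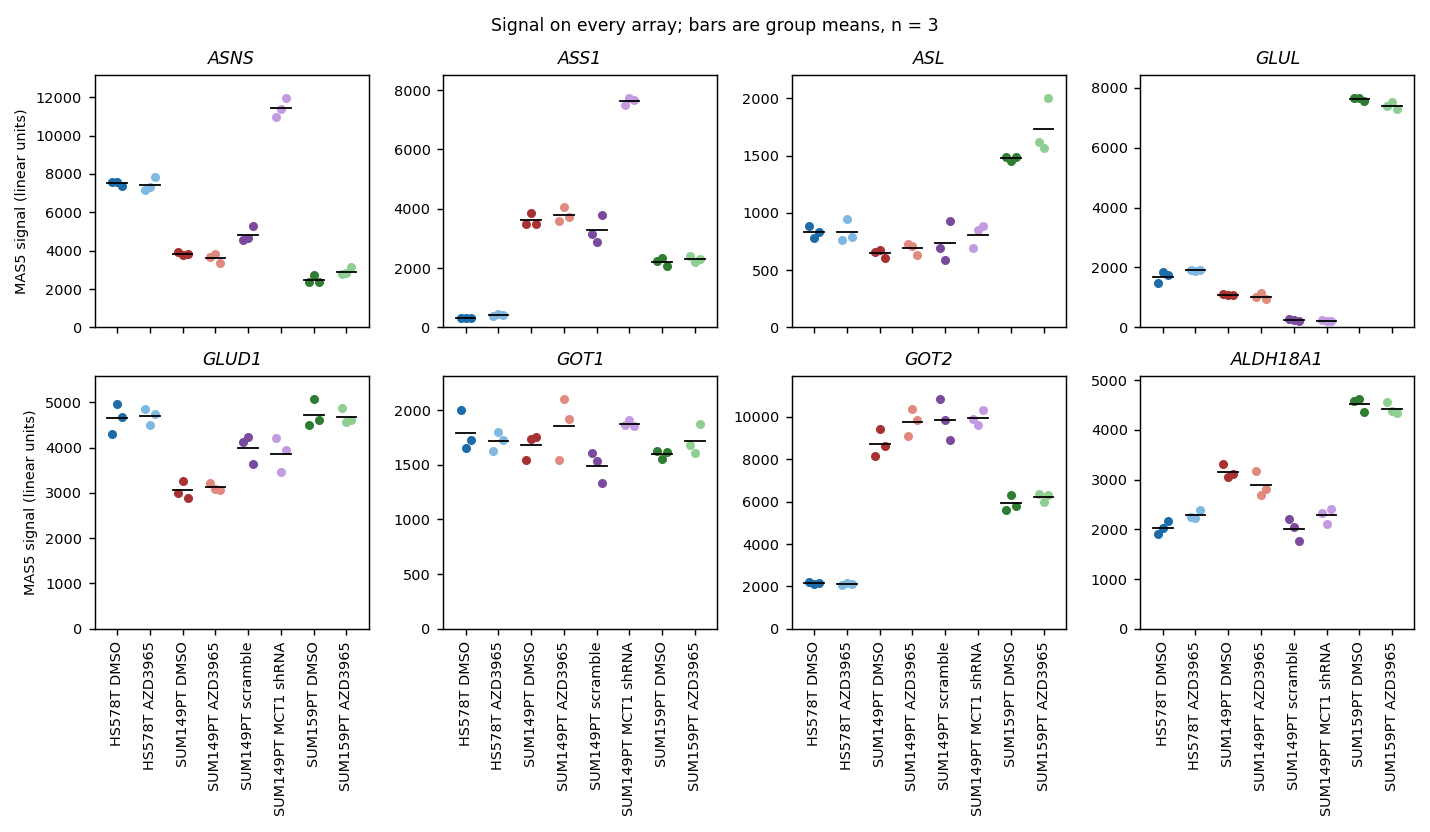
Signal of the brightest probe set of each of the 8 members on every array, by group (points, arrays; horizontal lines, group means; linear axis). The ASNS and ASS1 signals of the 3 MCT1 shRNA arrays are the highest of the 24 arrays, ASS1 is lowest in HS578T, and GLUL is lowest on the 6 arrays of infected SUM149PT cells.

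AZD3965 for 24 hours gave few calls. In HS578T, 1 of 8 members was called, where 0.304% of genes were called in either direction and 0.212% were called higher. That member was ASS1, with signals of 307, 312 and 314 with DMSO and 393, 441 and 411 with AZD3965. The groups did not overlap, and the mean went from 311 ± 4.03 to 415 ± 24.3 (SD, n = 3 each). The log2 difference was 0.40 ± 0.08 (SE), or 1.32-fold (limma adjusted p = 0.0380). In the fit across probe sets the same difference was not called (limma adjusted p = 0.0663). The call was lost without any of the 6 HS578T arrays in turn, at adjusted p from 0.0830 to 0.169. The summed signal of the 2 named basal epithelial markers also differed, at 1826 to 1972 with DMSO and 2416 to 2793 with AZD3965, most of it KRT14 (1881 ± 65.1 and 2569 ± 162, SD, n = 3 each), and its part in the ASS1 difference was not tested. Both HS578T groups remained far below the ASS1 signals of the SUM lines.

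GLUL and ALDH18A1 in HS578T had arrays without overlap and were not called. GLUL gave 1482, 1842 and 1751 with DMSO and 1929, 1884 and 1910 with AZD3965 (log2 difference 0.18 ± 0.09 SE, limma adjusted p = 0.628). ALDH18A1 gave 1905, 2019 and 2174 against 2246, 2225 and 2381 (0.17 ± 0.08 SE, limma adjusted p = 0.600). Arrays failed to overlap for 3 of 8 members, and for 19.3% of all genes. ASNS in this line gave 7570, 7570 and 7393 with DMSO and 7151, 7315 and 7837 with AZD3965, with a 95% interval from -0.17 to 0.14 for the log2 difference.

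No member was called with AZD3965 in SUM149PT, where 0.0283% of genes were called. On the brightest probe sets the arrays of no member were without overlap, against 21.0% of genes. ALDH18A1 on 217791_s_at did not overlap, at 1503 to 1639 with AZD3965 and 1435 to 1491 with DMSO. The log2 difference there was 0.10 (limma adjusted p = 0.716), beside -0.13 on 222416_at (limma adjusted p = 0.427). ASNS gave 3915, 3753 and 3844 with DMSO and 3692, 3833 and 3352 with AZD3965, with overlap and a 95% interval from -0.24 to 0.07. ASS1 gave 3502, 3858 and 3481 against 3585, 4050 and 3710, with a 95% interval from -0.11 to 0.24. GOT2 was the 1 member with an unadjusted p under 0.05, where 16.5% of all genes had such a p. Its difference was 0.16 ± 0.07 (SE; limma adjusted p = 0.266), with signals of 8147, 9420 and 8644 against 9084, 10383 and 9855.

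No member was called in SUM159PT either, where limma called 0 of 14141 genes (0%) and 954 had an unadjusted p under 0.05. ASNS was the 1 member of those 954, and gave 2385, 2742 and 2345 with DMSO and 2757, 2809 and 3141 with AZD3965. The arrays did not overlap, as for 3 of 8 members and 12.6% of genes, and the log2 difference was 0.22 ± 0.07 (SE; limma adjusted p = 0.728). ASL gave 1490, 1457 and 1485 against 1619, 1571 and 2008, a difference of 0.22 ± 0.13 (SE; limma adjusted p = 0.751). The third was GLUL, lower with AZD3965 at 7404, 7532 and 7278 against 7647, 7674 and 7546 (-0.04 ± 0.09 SE, limma adjusted p = 0.951). Averaged over the 3 lines, 0 of 8 members were called where 0.0283% of genes were, and ASS1 had the smallest adjusted p, at 0.17 ± 0.05 (SE; limma adjusted p = 0.187). An F test compared the AZD3965 effects of the 3 lines, and 0 of 8 members were called where 0.120% of genes were. In that limma test 3 members had an unadjusted p under 0.05, as did 9.99% of all genes, and the adjusted p was 0.383 for ASS1 and 0.417 for ASNS.

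**Figure D2:**
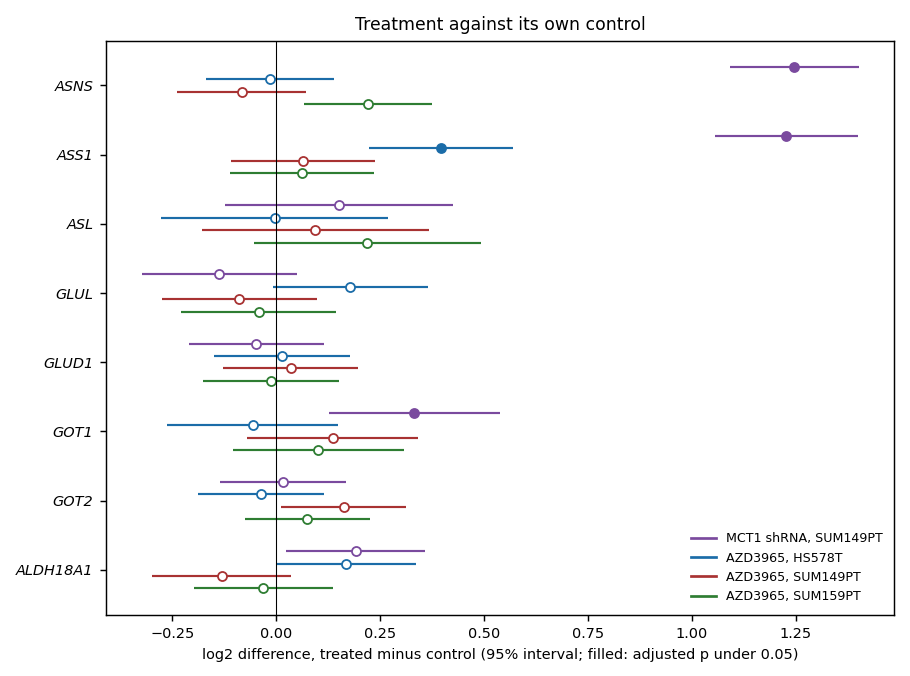
Log2 difference of each member for the MCT1 shRNA against scramble and for AZD3965 against DMSO in each line (points, estimates of the limma fit; bars, 95% intervals). ASNS at 1.25 and ASS1 at 1.23 with the MCT1 shRNA stand apart from the AZD3965 estimates, of which the highest is ASS1 in HS578T at 0.40.

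The shRNA effect and the AZD3965 effect within SUM149PT used different controls and were set against each other in the same fit. The effect of the shRNA was larger for ASNS by 1.33 ± 0.11 on the log2 scale (SE; limma adjusted p = 1.90e-08) and for ASS1 by 1.16 ± 0.12 (SE; limma adjusted p = 8.73e-07). These were 2 of 8 members, where 9.52% of genes were called and 4.58% were called higher. With median centring 521 genes in place of 1346 were called and 1.53% of genes were called higher, and the same 2 members were called. The difference was 0.32 ± 0.11 for ALDH18A1 (SE; limma adjusted p = 0.0777; 0.39 and called without SUM149PT AZD3965 array 1, adjusted p = 0.0302, or without scramble array 1, adjusted p = 0.0364) and 0.20 ± 0.14 for GOT1 (SE; limma adjusted p = 0.421). The treatments differ in duration, delivery and selection as well as in agent.

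The lines differed in most members under DMSO, as did most genes. Between HS578T and SUM149PT, 7 of 8 members were called, where 64.2% of all genes were. Of these members 4 were higher and 3 lower in HS578T, against 30.4% and 33.8% of genes, and the arrays of 7 members did not overlap, against 69.2%. Between HS578T and SUM159PT, 6 of 8 were called, where 58.0% of genes were. In HS578T 1 was higher and 5 were lower, against 27.3% and 30.7%. Between SUM149PT and SUM159PT, 7 of 8 were called, where 59.4% of genes were. In SUM149PT 3 were higher and 4 lower, against 30.0% and 29.3%, and 7 did not overlap, against 65.0%. With 8 members, these shares are not read as a difference from all genes.

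ASS1 had the largest differences from HS578T among the members. Its DMSO signal was 311 ± 4.03 in HS578T, 2215 ± 126 in SUM159PT and 3614 ± 212 in SUM149PT (SD, n = 3 each), and no arrays of different lines overlapped. HS578T was 11.1-fold below SUM149PT (log2 difference -3.47 ± 0.08 SE, limma adjusted p = 1.91e-20) and 6.82-fold below SUM159PT (limma adjusted p = 2.15e-18). SUM149PT was above SUM159PT by 0.70 on the log2 scale (limma adjusted p = 1.10e-07). ASNS was ordered differently, at 7511 ± 102 in HS578T, 3837 ± 81.0 in SUM149PT and 2491 ± 219 in SUM159PT. HS578T was 3.01-fold above SUM159PT (limma adjusted p = 7.72e-15), 0.97 above SUM149PT on the log2 scale (limma adjusted p = 4.87e-11), and SUM149PT 0.62 above SUM159PT (limma adjusted p = 1.17e-07).

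ASL was highest in SUM159PT, at 1477 ± 17.4 against 834 ± 54.9 in HS578T and 647 ± 33.9 in SUM149PT (SD, n = 3 each). SUM159PT was 2.25-fold above SUM149PT (limma adjusted p = 4.60e-08). HS578T was above SUM149PT by 0.36 ± 0.13 (SE; limma adjusted p = 0.0214), a call lost without HS578T DMSO array 1 (adjusted p = 0.0761), without SUM149PT DMSO array 3 (adjusted p = 0.0738), with quantile normalization (0.0632) and with median centring (0.173). The pair of enzymes that make arginine therefore had different orders across the lines, with ASL highest in SUM159PT and ASS1 highest in SUM149PT.

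GLUL was highest in SUM159PT on all 3 tested probe sets. On 215001_s_at it was 7623 ± 67.6 in SUM159PT, 1692 ± 187 in HS578T and 1091 ± 22.0 in SUM149PT (SD, n = 3 each). SUM159PT was 6.90-fold above SUM149PT (limma adjusted p = 5.89e-18) and 4.49-fold above HS578T (limma adjusted p = 8.00e-16). The log2 difference of SUM149PT from SUM159PT was -2.22 on 217202_s_at and -2.76 on 200648_s_at. Between HS578T and SUM149PT, 215001_s_at and 217202_s_at were called higher in HS578T and 200648_s_at was not (0.40 ± 0.32 SE, limma adjusted p = 0.304), in the fit where 55.3% of probe sets were called. The fourth GLUL probe set, 242281_at, ranged from 3.23 to 117 on the 24 arrays and was not tested.

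GLUD1 was lower in SUM149PT, at 3059 ± 194, than in HS578T at 4653 ± 327 and SUM159PT at 4732 ± 306 (SD, n = 3 each). HS578T minus SUM149PT was 0.60 on the log2 scale (limma adjusted p = 3.84e-07) and SUM149PT minus SUM159PT was -0.63 (limma adjusted p = 2.61e-07), while HS578T and SUM159PT were not called (-0.02, limma adjusted p = 0.819). GOT2 was lowest in HS578T, at 2169 ± 51.0 against 5920 ± 370 in SUM159PT and 8737 ± 641 in SUM149PT. HS578T differed from SUM149PT by -2.00 on the log2 scale (limma adjusted p = 4.61e-17) and was 2.71-fold below SUM159PT (limma adjusted p = 3.41e-14). GOT1, the cytosolic aminotransferase, was not called between any lines, with means of 1792 ± 182, 1678 ± 116 and 1598 ± 38.5 in HS578T, SUM149PT and SUM159PT (limma adjusted p = 0.442 for HS578T against SUM149PT, 0.179 against SUM159PT, and 0.586 between the SUM lines).

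ALDH18A1 was highest in SUM159PT, at 4518 ± 141, then 3162 ± 132 in SUM149PT and 2033 ± 135 in HS578T (SD, n = 3 each). All 3 differences were called on 222416_at, with SUM159PT 2.22-fold above HS578T (limma adjusted p = 1.50e-11). On 217791_s_at the difference between HS578T and SUM149PT was -0.16 ± 0.10 (SE; limma adjusted p = 0.180), and the other line differences were called with the same sign.

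**Figure D3:**
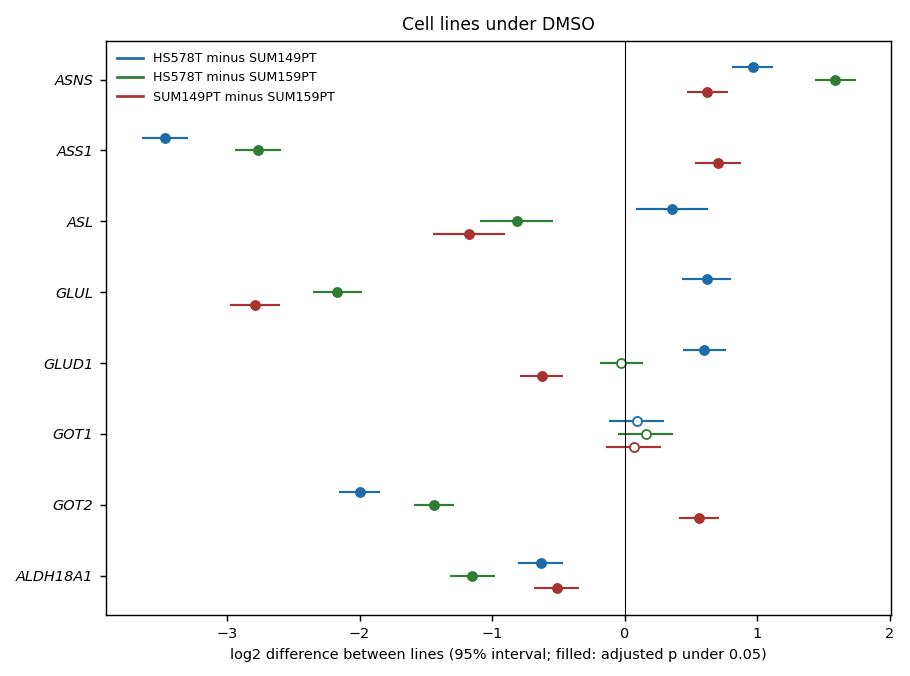
Log2 difference of each member between pairs of lines under DMSO (points, estimates of the limma fit; bars, 95% intervals). ASS1 and GOT2 lie below 0 in HS578T against either SUM line, ASNS lies above 0, GLUL lies below 0 wherever SUM159PT is the second line, and GOT1 lies near 0 in all 3.

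**Figure D4:**
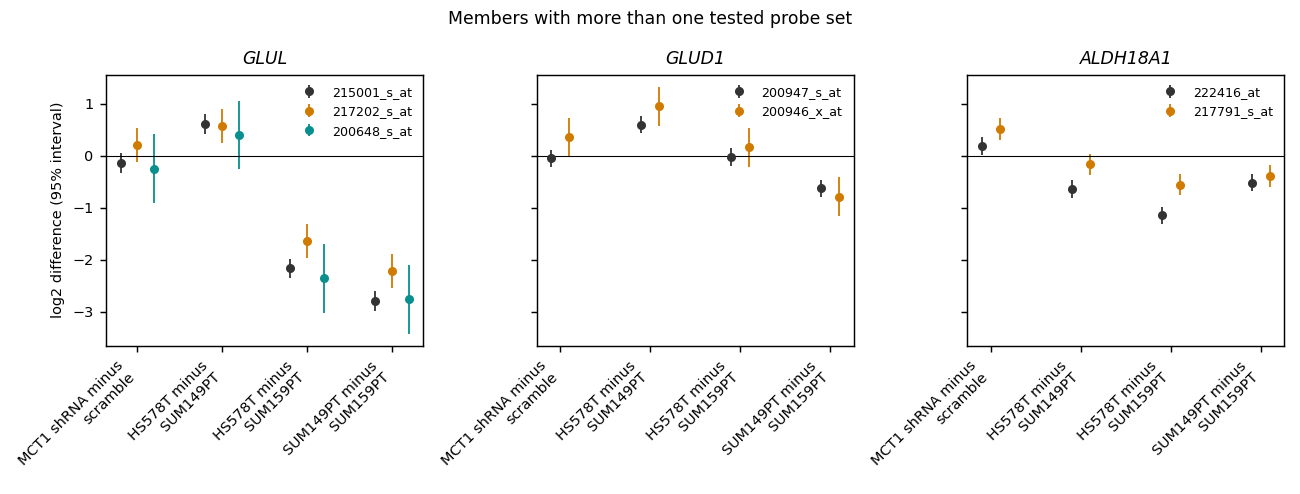
Estimates for the members with more than 1 tested probe set, by probe set (points, log2 differences of the fit across probe sets; bars, 95% intervals). The ALDH18A1 probe sets give 0.19 and 0.52 for the MCT1 shRNA, and the GLUL probe sets share their sign against SUM159PT.

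Near-identical copies can add to these signals. The gene table lists named pseudogenes of ASS1 (14), GOT2 (7), GLUL (6), GLUD1 (6), ASNS (5) and ASL (1), and none for GOT1 or ALDH18A1. Whether the probe sets also read those copies was not tested.

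Over the 8 group means, the range was 4.99 on the log2 scale for GLUL and 4.55 for ASS1, against 0.33 for GOT1. The GLUL range stands at percentile 96.4 of all genes tested and the GOT1 range at percentile 1.22. The pattern of each gene across the 8 groups was centred on its own mean and compared by the root mean square difference. Among members, GLUD1 and GOT1 were closest, at 0.284, where they depart from their own means by only 0.246 and 0.102. Both patterns are nearly flat, and their difference exceeds either departure, so it does not show a shared pattern. ASS1 was closest to GOT2, at 0.662, where GOT2 departs from its own mean by 0.880. Outside them, the genes nearest to ASNS were HLX (0.210), PBLD (0.228) and BLTP3A (0.274), where ASNS departs from its own mean by 0.712. Those nearest to ASS1 were PPL (0.248), ANGPTL4 (0.330) and SERPINA3 (0.338), where ASS1 departs by 1.49.

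Other enzymes and carriers of these pathways were listed as 53 genes, of which 39 were tested. With the MCT1 shRNA, 2 rose and 3 fell, 12.8% of the 39 against 14.9% of all genes, and the median log2 difference was -0.05. GFPT1, which uses glutamine to make glucosamine phosphate, rose by 0.87 ± 0.08 (SE; limma adjusted p = 1.11e-07), and DDAH1, which degrades methylated arginines, rose by 0.42 ± 0.09 (SE; limma adjusted p = 0.00258). PPAT, which commits glutamine nitrogen to purine synthesis, was at -0.41, the antizyme inhibitor AZIN1 at -0.32 and DDAH2 at -0.36, all called lower. With AZD3965 limma called 0 of the 39 in any line or on average, and 5 in HS578T, 11 in SUM149PT, 2 in SUM159PT and 8 on average had an unadjusted p under 0.05. Among all genes 8.28%, 16.5%, 6.75% and 14.5% had such a p. Between lines 22, 24 and 29 of the 39 were called for HS578T against SUM149PT, HS578T against SUM159PT and SUM149PT against SUM159PT. These are 56.4%, 61.5% and 74.4% of the list, against 64.2%, 58.0% and 59.4% of all genes. The ornithine carrier SLC25A15 was lower in HS578T than in SUM149PT by a log2 difference of -2.26, and DDAH2 was higher by 2.43.

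The cell line labels were compared with marker genes. Under DMSO, SUM149PT had epithelial CDH1 at 8772, whereas HS578T and SUM159PT had mean CDH1 signals near 4, and ZEB1 was 4895 in HS578T, 3763 in SUM159PT and 86.1 in SUM149PT. Epithelial EPCAM was 14967 in SUM149PT, 12.5 in HS578T and 54.6 in SUM159PT, and KRT19 and ESRP1 were likewise far higher in SUM149PT. Mesenchymal SPARC was 22.8 in SUM149PT, 19019 in HS578T and 9398 in SUM159PT. Basal epithelial KRT14 was higher in HS578T, at 1881, than in SUM149PT, at 234. Some other listed markers, among them FN1, VIM and KRT18, split the lines less clearly. Mesenchymal FN1 was higher in SUM149PT, at 20367, than in SUM159PT, at 16757, and VIM was 9516 in SUM149PT. Epithelial KRT18 was 15896 in SUM149PT, 7470 in SUM159PT and 5629 in HS578T. The summed signal of the 4 named leukocyte markers ran from 55.3 to 576, of the endothelial markers from 118 to 504 and of the adipocyte markers from 10.2 to 65.9 over all arrays. The summed signal of the epithelial markers, all 6 named, was 47230 to 54153 on the scramble arrays and 62776 to 67399 on the MCT1 shRNA arrays. The largest rise among them was that of KRT19, from 6097 ± 820 to 12875 ± 272 (SD, n = 3 each). EPCAM was 12149 ± 477 and 12414 ± 684 (SD, n = 3 each). The part of these markers in the differences of ASNS and ASS1 was not tested. Median array signals ran from 49.2 to 67.4. The number of arrays, 3 in a group, limits the precision.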

How the data were processed

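Biotin-labelled RNA was measured on 24 Affymetrix arrays. The authors deposited intensity values made with MAS5 according to the submitters' processing notes, with no software version named, and the values are linear. Their trimmed mean (2% off either end) was 500.1 on all arrays, which were therefore scaled before deposition.

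Of 54675 probe sets, 41097 had 1 gene symbol, 1801 several and 11777 none. For 41043 of those with 1 symbol, the gene ID was found in RefSeq and the symbol given there was used. Each gene was represented by its brightest probe set (mean of 24 arrays). The log2 of the signal plus 16 was analysed, which understates the changes of dim genes, and genes at or above the 40th percentile of probe sets (5.58, a signal of 31.7) were tested. limma 3.58.1 in R 4.3.3 fitted 8 group means to all arrays (16 residual and 6.52 prior degrees of freedom, eBayes with trend). A Benjamini-Hochberg adjusted p under 0.05 over all genes, two-sided, was called. A second fit covered single probe sets. Promoters were read with a Python script.

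The members and gene lists were chosen with earlier results of these data known. The text names every member, at most 6 called pathway genes of smallest p in a comparison and the 3 genes most like ASNS and ASS1. The alternatives tried were median centring, quantile normalization, other filters and offsets, averaging probe sets, no trend, a replicate block, fitting only the groups compared, and leaving out each array. The pipeline was tested on simulated data. The gene targeted by the shRNA is not reported here.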

Additional observations from a re-analysis of the deposited data

Results flagged for a closer look

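The effect of the MCT1 shRNA differed from that of AZD3965 within SUM149PT for ASNS and ASS1, by the test of the difference itself. For ASNS the difference of effects was 1.33 on the log2 scale (limma adjusted p = 1.90e-08), and for ASS1 it was 1.16 (limma adjusted p = 8.73e-07). All 3 MCT1 shRNA arrays lay above all 3 scramble arrays in both genes, while the AZD3965 and DMSO arrays overlapped. What sets the treatments apart was not tested, since they differ in agent, duration, infection and selection, and their arrays in the actin ratio.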

How the results depend on the processing

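Of the values of single members under the alternatives, 2260 stayed on the same side of the threshold, and 84 of these, not called in either fit, changed sign. A further 25 lost a call and 9 gained one with the same sign. The 1 value that changed sign with a call in either fit was GLUD1 on 200946_x_at for scramble against DMSO. It was -0.13 and not called (limma adjusted p = 0.632), and 0.26 and called without scramble array 3 (limma adjusted p = 0.0234). That alternative was added after the values were seen. The count of members called with AZD3965 in HS578T, 1, was 0 with median centring, an offset of 64, no mean-variance trend, a replicate block or only the groups compared, and 0 to 0 when each array was left out. The count of members whose MCT1 shRNA and AZD3965 effects differed in SUM149PT, 2, was 3 without SUM149PT AZD3965 array 1 or scramble array 1, where ALDH18A1 was called too, and 1 with the mean of probe sets, where ASNS takes in its dim probe set and stood at 0.61 (limma adjusted p = 0.0813). The causes of the changes in HS578T were not tested. Replicate numbers did not pair the arrays: same-numbered arrays deviated with r from -0.13 to 0.083, and 9 of 24 arrays correlated best with their own number in the partner group. With the replicate block the one call that changed was ASS1 in HS578T (limma adjusted p = 0.0628). Median centring moved the median gene by -0.11 for the MCT1 shRNA, 0.16 for AZD3965 in HS578T and -0.10 for HS578T against SUM149PT.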

Other observations

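The control groups of SUM149PT, scramble shRNA and DMSO, were compared after the values of GLUL and ALDH18A1 were seen. GLUL was lower on the scramble arrays, at 272, 260 and 215 against 1116, 1081 and 1075 with DMSO, a 4.20-fold difference (log2 -2.07 ± 0.09 SE, limma adjusted p = 6.26e-14). It ranked 57 from the lowest of 14141 genes, and 217202_s_at gave -1.35. The third tested GLUL probe set, 200648_s_at, read 6.11, 56.6 and 15.9 on the scramble arrays, too dim for a fold, against 158, 118 and 145 with DMSO. ALDH18A1 was lower by a log2 difference of -0.66 ± 0.08 (SE; limma adjusted p = 1.35e-06), and by -0.86 on its second probe set. ASNS was higher by 0.32 ± 0.07 (SE; limma adjusted p = 0.00170). GLUD1 was higher by 0.38 ± 0.08 (SE; limma adjusted p = 6.03e-04), while its second probe set gave -0.13 and was not called. On that probe set scramble array 3 read 1069, and the other scramble arrays, at 2259 and 2601, lay above all DMSO arrays (1985 to 2085). Without scramble array 3 the difference there was 0.26 (limma adjusted p = 0.0234), higher on the scramble arrays as on the first probe set. GLUL, ALDH18A1, ASNS and GLUD1 were the 4 of 8 members called, where 33.0% of genes were. They were also called without scramble array 3, and there ASS1, at -0.26 (limma adjusted p = 0.0106), and GOT2, at 0.24 (limma adjusted p = 0.0134), were called too. The share of all genes called without that array was not counted, so these added calls are not read as a result about the members.

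The MCT1 shRNA arrays, with GLUL at 244, 215 and 215, were as low as the scramble arrays. CD14, a leukocyte marker, was 62.3 ± 12.3 on the scramble arrays and 389 ± 54.3 with DMSO (SD, n = 3 each), while the 4 leukocyte markers together summed to 83.7 to 130 and 395 to 454. The summed signal of the 5 mesenchymal markers was 20623 to 21538 on the scramble arrays and 29882 to 33084 with DMSO. Most of that difference was FN1, at 9073 ± 276 and 20367 ± 1154 (SD, n = 3 each). VIM, of the same list, went the other way, at 11128 ± 549 on the scramble arrays and 9516 ± 537 with DMSO (SD, n = 3 each). The part of either list in the GLUL difference was not tested. The actin ratio of 3′ over 5′ signal was 2.14, 1.45 and 53.8 on the scramble arrays. With DMSO in SUM149PT it was 1.31, 1.30 and 1.31. The infected and uninfected cells differ in vector, puromycin and culture, and their arrays in this RNA quality ratio, which cannot be told apart. Against the DMSO arrays in place of scramble, the MCT1 shRNA arrays differed by 1.57 on the log2 scale for ASNS, 1.08 for ASS1 and 0.16 for GOT1 (limma adjusted p = 0.221 for GOT1), also added after the values were seen.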
